A study of Homo sapiens with 101 samples.

Results

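Kinesins are motor proteins that walk along microtubules and burn ATP to do so. Some build and move the mitotic spindle, carry chromosomes or act in the final cut of cell division, and their transcripts are known to accumulate in G2 and mitosis. Others haul vesicles, organelles and protein complexes through the cell at all stages of the cycle. The genes described here are those named KIF with a number and an optional letter, together with KIFC1 to KIFC3. Of 42 such genes in the reference gene list, 41 had a probe set on the array, out of 19774 genes in all. KIF4B, a near copy of KIF4A, had no probe set of its own here, so signal of KIF4A may include it. Each gene was represented by its brightest probe set over the arrays as a whole, out of 86 probe sets for the family. The 41 measured genes were split by their known roles into 13 mitotic kinesins, 17 transport kinesins and 11 others.

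The cells were HT1080, a human fibrosarcoma line, and each compound was given at 1 dose that the study chose for a similar, 1.5-fold rise of total p53 protein. The labels give the compounds by abbreviation, most of which are in common use: MMC (mitomycin C, a DNA crosslinker) at 0.1 uM, NCS (neocarzinostatin, a DNA breaker) at 10 ng/ml, H2O2 (hydrogen peroxide) at 100 uM, ENU (ethylnitrosourea, an alkylating agent) at 2 mM, GAD at 2 mM, tBHQ (tert-butylhydroquinone) at 200 uM, BRO at 600 uM, MMS (methyl methanesulfonate, an alkylating agent) at 200 uM, CUR (curcumin) at 10 uM, ETP (etoposide, a topoisomerase II poison) at 0.3 uM and QUE (quercetin, a flavonoid) at 30 uM. GAD and BRO are not spelled out in the labels and are used as given. BRO, CUR, ETP and QUE each had a DMSO control of their own and MMS had the control MMS_CTL, while MMC, NCS, H2O2, ENU, GAD and tBHQ were set against the control named DMSO_pooled, a tie taken from the labels' having no other control for them. The treatment protocol gives a vehicle share of 0.1% in the medium, and no exposure time is given in the sources used here. MMC and H2O2 had 5 samples and every other group had 6. Nothing in the labels says whether the numbered samples were separate cultures, so the p-values reflect sample-to-sample spread of these arrays, and that spread may be technical.

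The deposited values are log2 signals of whole cultures, so a fall in a transcript can come from fewer cells that hold it or from less of it per cell, and these cannot be told apart. The 7 mesenchymal markers fixed for the line, among them VIM and CD44, had lowest group means of 9.21 to 12.8, and 6 markers of epithelial, blood, endothelial, glial and liver cells (EPCAM, CDH1, PTPRC, PECAM1, GFAP, ALB) stayed under 4 in all 17 groups. A group mean under 4 is treated here as not well above background. By that measure 28 of the 41 kinesins were tested, 12 mitotic, 14 transport and 2 others (KIF2A and KIF9), and 26 of these were above it in all groups. KIF21B was at or above 4 in all groups but MMS, and KIFC3 in 8 groups. The 13 kinesins under 4 in all groups were KIF1A, KIF5A, KIF17, KIF2B, KIF6, KIF7, KIF12, KIF19, KIF24, KIF25, KIF26A, KIF26B and KIF27, among which KIF1A and KIF5A are neuronal motors and KIF7 and KIF27 belong to Hedgehog signalling and cilia. A gene was called higher or lower at an adjusted p under 0.05 (limma, Benjamini-Hochberg over 11496 genes of each comparison) and a change of at least 1.5-fold. Over 11 compounds this gave 45 calls in 21 kinesins: 25 among the mitotic, of which 24 were lower, 18 among the transport kinesins, of which 11 were higher, and 2 among the others, both lower. The share of all genes called ran from 0.165% with MMC to 26.2% with GAD, and is given below beside the calls of each compound. These fits did not pair samples by their numbers.

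In 2 libraries, one labelled ETP replicate 2 and one labelled QUE replicate 2, the values went against the label. Each ETP and QUE sample was taken as its difference from the mean of its control group, over 11496 genes. The library labelled ETP replicate 2 had a Pearson r of 0.92 with the mean of the QUE samples other than replicate 2, and of 0.19 with that of the other ETP samples. The library labelled QUE replicate 2 had an r of 0.087 with the mean of the other QUE samples and of 0.66 with that of the ETP samples other than replicate 2. All other samples of these groups had an r of 0.57 or more with their own group and of 0.22 or less with the other. Both libraries keep their labels here, and results of ETP and QUE that rest on them are given with and without them.

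Promoters of many genes used in mitosis carry CCAAT boxes and a cell cycle genes homology region, often written TTTGAA. Only those exact letters were searched, so other forms of the region would be missed. The letters TTTGAA stood in the promoter windows of 9 of 12 tested mitotic kinesins (75.0%), of 1 of 10 tested transport kinesins with a window (10.0%, KIF5B) and of 14.0% of 9494 tested genes with a window. CCAAT stood in 10 of 12 mitotic kinesins (83.3%), 4 of 10 transport kinesins (40.0%) and 44.0% of tested genes. Both motifs stood in 8 of the 12 mitotic kinesins (66.7%), against 5.89% of tested genes. Each window ran from 250 bases before to 50 bases after a RefSeq start of the gene in GRCh38.p14, and both strands were searched. Neither motif contains the other. KIF1B, KIF22, KIF5C and KIF9 had more than 1 window, and a match in any of them counted. The KIFC1 window (chr6:33391573-33391872) lay downstream of the first base of that gene in the gene list (33391461). The sequences below cover 100 bases before and 20 bases from the start, 5′ to 3′ on the gene's strand. The capitals mark CCAAT or its complement ATTGG, and TTTGAA or its complement TTCAAA. They are shown because these mitotic kinesins, all but KIF23 called lower with at least 1 compound, differ in the letters they hold. A match is a description of the letters and not a shown binding site.
KIF11 (chr10:92593030-92593149, plus strand): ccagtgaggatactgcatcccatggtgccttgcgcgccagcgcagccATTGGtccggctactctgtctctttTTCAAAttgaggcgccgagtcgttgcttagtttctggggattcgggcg
KIF15 (chr3:44761694-44761813, plus strand): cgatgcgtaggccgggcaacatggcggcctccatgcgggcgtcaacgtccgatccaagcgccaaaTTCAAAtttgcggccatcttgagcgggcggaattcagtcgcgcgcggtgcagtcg
KIF4A (chrX:70290004-70290123, plus strand): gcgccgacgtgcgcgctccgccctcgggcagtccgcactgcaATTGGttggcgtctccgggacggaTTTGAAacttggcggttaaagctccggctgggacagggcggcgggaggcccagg
KIF23 (chr15:69414249-69414368, plus strand): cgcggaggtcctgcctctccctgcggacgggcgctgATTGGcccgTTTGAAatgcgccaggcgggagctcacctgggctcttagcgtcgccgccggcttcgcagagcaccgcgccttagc
KIF18B (chr17:44947754-44947873, minus strand): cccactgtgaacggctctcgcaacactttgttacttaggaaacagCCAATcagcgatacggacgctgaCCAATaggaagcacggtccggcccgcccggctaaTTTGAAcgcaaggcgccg
KIFC1 (chr6:33391723-33391842, plus strand): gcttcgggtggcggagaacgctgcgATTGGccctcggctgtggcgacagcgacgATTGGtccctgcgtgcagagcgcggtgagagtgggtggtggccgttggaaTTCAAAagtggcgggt
KIF20A (chr5:138179012-138179131, plus strand): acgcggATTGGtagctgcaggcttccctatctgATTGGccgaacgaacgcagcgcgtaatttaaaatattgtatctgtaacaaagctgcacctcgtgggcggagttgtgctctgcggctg
KIF2C (chr1:44739737-44739856, plus strand): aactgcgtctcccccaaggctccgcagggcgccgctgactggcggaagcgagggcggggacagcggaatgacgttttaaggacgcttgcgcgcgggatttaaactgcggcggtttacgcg
KIF20A holds CCAAT on the other strand but no TTTGAA, and KIF2C holds neither. KIF22 likewise holds no TTTGAA in its windows. The windows of the transport kinesins KIF21A and KIF3C, shown next, hold neither motif. KIF21A was called higher with 3 compounds, and KIF3C higher with 1 and lower with 2. The transport kinesins KIF1B and KIF5C, each called higher with 1 compound, hold CCAAT.
KIF21A (chr12:39443101-39443220, minus strand): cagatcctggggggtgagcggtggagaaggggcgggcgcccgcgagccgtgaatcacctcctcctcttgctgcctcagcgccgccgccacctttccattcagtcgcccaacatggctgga
KIF3C (chr2:25982478-25982597, minus strand): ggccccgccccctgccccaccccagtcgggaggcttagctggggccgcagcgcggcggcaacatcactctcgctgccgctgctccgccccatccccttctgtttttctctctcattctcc

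The mitotic kinesins lay below control as a group with QUE, GAD, NCS, H2O2 and tBHQ, and to a smaller extent with BRO, while the transport kinesins went both ways. The median log2 fold change of the 12 mitotic kinesins was -0.89 with QUE, -0.66 with GAD, -0.51 with NCS, -0.49 with H2O2, -0.40 with tBHQ and -0.26 with BRO, and all 12 were below 0 in each of these. With ETP it was -0.48 with all 12 below 0, but without the library labelled ETP replicate 2 it was -0.20 with 7 of 12 below 0. It was -0.09 with CUR, 0.05 with MMC, 0.07 with MMS and 0.15 with ENU. The median of the 14 transport kinesins was 0.26 with tBHQ and 0.16 with QUE, with 11 of 14 above 0 in each, and -0.15 with BRO, with 9 of 14 below 0. With the other 8 compounds it lay between 0.017 and 0.13. The medians of all 11496 genes lay between -0.02 and 0.06. MMC, NCS, H2O2, ENU, GAD and tBHQ share the DMSO_pooled samples, so their values are not independent of each other.

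Single libraries moved several of these medians. The mean over the mitotic kinesins was 5.93 in QUE replicate 3 and 6.91 in replicate 2, against 7.33 or more in the other QUE samples, 6.65 in ETP replicate 2 and 6.78 in H2O2 replicate 3. The QUE median was -0.80 without replicate 2, again with all 12 below 0, -0.63 without replicate 3 and -0.45 without both. The H2O2 median was -0.30 without H2O2 replicate 3, and the BRO median was -0.16 without BRO replicate 3. The CUR median was -0.23 without CUR_DMSO replicate 5 and -0.016 without CUR replicate 5, and the ENU median was 0.091 without DMSO_pooled replicate 6. The MMS and MMC medians had no settled sign: that of MMS was -0.079 without MMS_CTL replicate 3, and that of MMC was -0.043, -0.0087 and -0.055 without MMC replicate 1, MMC replicate 2 or DMSO_pooled replicate 6.

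**Figure D1:**
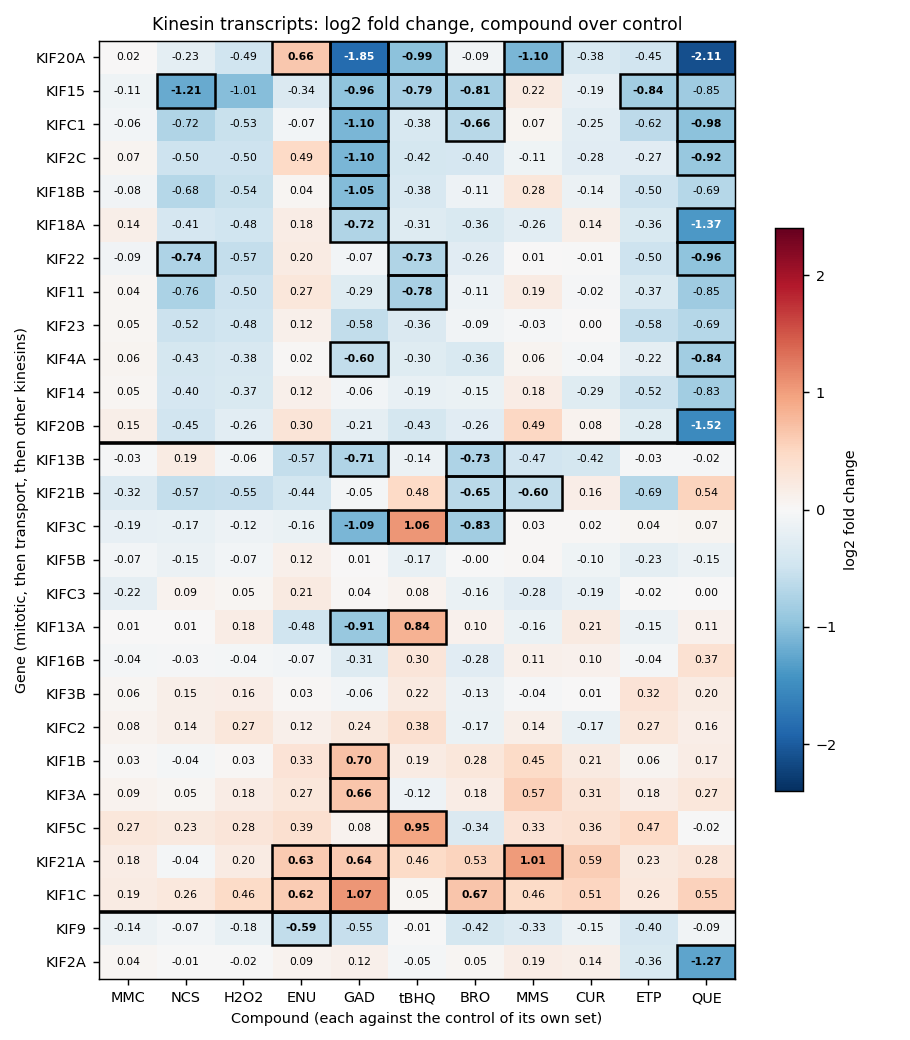
Log2 fold change of the 28 tested kinesins (rows) with each of 11 compounds over its control (columns). Boxed bold cells passed the test and the 1.5-fold minimum. The mitotic block is blue in the NCS, H2O2, GAD, tBHQ, ETP and QUE columns, with medians of -0.51, -0.49, -0.66, -0.40, -0.48 and -0.89, and the transport block holds both colours. The ETP and QUE columns include the libraries labelled replicate 2, and the ETP median is -0.20 without its one.

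**Figure D2:**
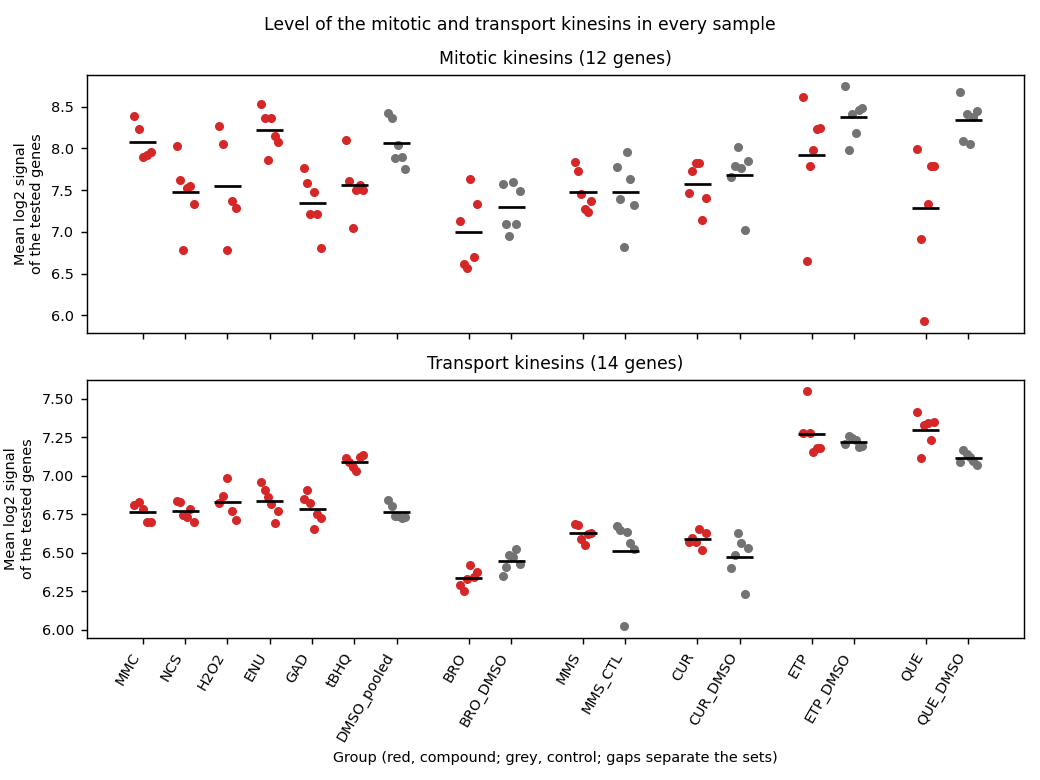
Mean log2 signal of the 12 tested mitotic kinesins (top) and the 14 tested transport kinesins (bottom) in each of 100 samples, with compounds in red, controls in grey and bars at group means. Sets look normalized apart, so each compound is read against the control of its own set. The QUE samples reach down to 5.93 in the top panel, against 8.05 to 8.68 in QUE_DMSO.

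KIF20A (MKLP2), which brings the chromosomal passenger complex to the central spindle for cytokinesis, had the largest falls of the family. With QUE its log2 signal was 5.48 to 8.35 (median 7.62), against 9.11 to 9.59 (median 9.41) in QUE_DMSO. All 6 QUE samples lay below all 6 controls, 4.31-fold lower on average (log2 fold change -2.11 ± 0.38 SE, limma adjusted p = 0.0029). The library labelled QUE replicate 2 held the highest of these QUE values, 8.35, with the other QUE samples at 5.48 to 7.76. The library labelled ETP replicate 2 held the lowest ETP value, 6.07, with the other ETP samples at 8.84 to 9.93. Without QUE replicate 2 the log2 fold change with QUE was -2.33, and KIF20A was not called with ETP, with or without ETP replicate 2. QUE had 8 kinesin calls, all lower, 7 of them among the 12 mitotic, where 13% of all genes were called and 6.65% were called lower. Without QUE replicate 2 there were also 8 calls, where 18.9% of all genes were called, 9.16% higher and 9.73% lower. Then 6 were lower, 5 of them mitotic, and the transport kinesins KIF1C (log2 fold change 0.59) and KIF21B (0.77) were higher. KIF1C was also called higher with QUE without QUE_DMSO replicate 1, and KIF21B without QUE replicates 2 and 3. With GAD the KIF20A signal was 6.23 to 7.83, against 8.57 to 9.34 in DMSO_pooled, 3.61-fold lower (limma adjusted p = 1.7e-05). GAD had 14 kinesin calls where 26.2% of all genes were called, and 7 of the 12 mitotic kinesins were lower where 15% of all genes were. KIF20A also fell with MMS, 2.14-fold (6.96 to 8.02, against 8.09 to 8.82 in MMS_CTL), and with tBHQ, 1.99-fold (7.55 to 8.52, against 8.57 to 9.34 in DMSO_pooled). It was the only mitotic kinesin called with MMS, which had 3 kinesin calls, 1 higher and 2 lower, where 11% of all genes were called, 4.46% higher and 6.56% lower. It rose with ENU, 1.58-fold, at 9.14 to 10.1, against 8.57 to 9.34 in DMSO_pooled, with 5 of 6 ENU samples above all controls. ENU had 4 kinesin calls, 3 higher and 1 lower, where 10.9% of all genes were called, 4.76% higher and 6.11% lower. The ENU call of KIF20A fell short of 1.5-fold without ENU replicate 1, without ENU replicate 4 or without DMSO_pooled replicate 6 (log2 fold changes of 0.56, 0.58 and 0.57). The count of ENU calls was 1 without DMSO_pooled replicate 4 or 6 and 2 without DMSO_pooled replicate 5 or ENU replicate 1.

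KIF15 (kinesin-12), which helps to hold the spindle poles apart, was called lower with more compounds than any other kinesin. These were NCS, GAD, tBHQ, BRO and ETP, of which NCS, GAD and tBHQ share their controls. With NCS its signal was 4.75 to 6.75 (median 5.72), against 6.78 to 7.35 (median 6.88) in DMSO_pooled. No NCS sample reached the lowest control, a 2.31-fold fall (log2 fold change -1.21 ± 0.27 SE, limma adjusted p = 0.018). NCS had 2 kinesin calls, both mitotic and lower, where 2.44% of all genes were called and 0.966% were called lower. With GAD KIF15 was 1.94-fold lower, with tBHQ 1.73-fold, with ETP 1.79-fold (6.25 to 7.15, against 7.16 to 7.86 in ETP_DMSO) and with BRO 1.75-fold (4.96 to 6.24, against 6.09 to 6.62 in BRO_DMSO). The groups did not overlap with GAD, tBHQ or ETP, and 5 of 6 BRO samples lay below all controls. KIF15 was the only kinesin called with ETP, where 2.68% of all genes were called, 2.06% higher and 0.618% lower. Without ETP replicate 2, KIF15 (log2 fold change -0.80) and the transport kinesin KIF21B (-0.93) were called lower, where 3.96% of all genes were called and 1.3% were called lower. Without ETP replicate 1, KIFC1 (-0.77) was called beside KIF15. Of the calls of KIF15 and KIF20A described above, leaving out 1 library ended only the ENU call of KIF20A.

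In H2O2 samples KIF15 had log2 signals of 6.85, 6.37, 5.42, 5.79 and 5.53, against 6.78 to 7.35 in DMSO_pooled, and 4 of 5 lay below all controls. Its log2 fold change of -1.01 ± 0.24 had a limma adjusted p of 0.053, and no kinesin was called with H2O2, where 0.931% of all genes were. At an unadjusted p under 0.05, limma listed 6 kinesins with H2O2, but the share of all genes at that threshold was not taken, so this count has no baseline. The sample numbers were taken to pair the H2O2 samples with controls, which the labels do not state. Once that number was a block KIF15 was called lower (log2 fold change -1.02, limma adjusted p = 0.0079). It was the 1 kinesin call of that fit, where 1.95% of all genes were called. Without H2O2 replicate 1 there were 2 kinesin calls, KIF15 and KIF21B. Without H2O2 replicate 2 or DMSO_pooled replicate 3 there was 1, KIF21B. In the main fits KIF21B had log2 fold changes of -0.55 with H2O2 and -0.57 with NCS (limma adjusted p of 0.026 and 0.016), under 1.5-fold. With the block, NCS gave 5 lower calls: KIF11, KIF15, KIF18B, KIF22 and KIFC1. That fit called 3.72% of all genes, 1.8% lower. Without NCS replicate 1 the NCS count was 7, of which 6 were mitotic kinesins, given with no share of all genes beside it.

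**Figure D3:**
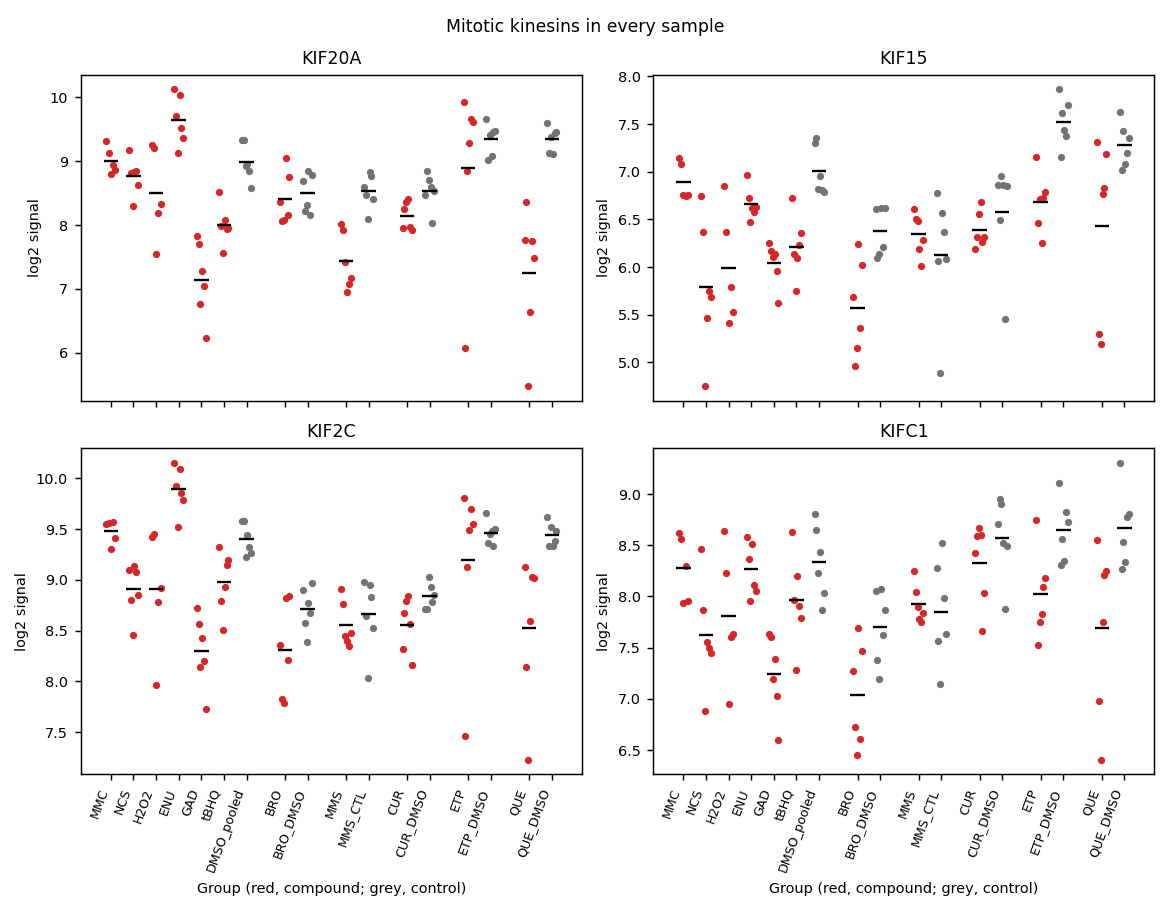
Log2 signal of KIF20A, KIF15, KIF2C and KIFC1 in each sample, with compounds in red, controls in grey and bars at group means. All QUE, GAD, MMS and tBHQ samples of KIF20A lie below all samples of their controls, and all 6 NCS samples of KIF15 lie below DMSO_pooled.

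Among the other motors that set spindle length and shape, KIF11 (Eg5) slides antiparallel microtubules apart. It fell 1.72-fold with tBHQ, at 7.33 to 8.18 (median 7.50), against 7.91 to 8.85 (median 8.30) in DMSO_pooled, with 5 of 6 tBHQ samples below all controls (limma adjusted p = 0.0047). tBHQ had 7 kinesin calls where 9.83% of all genes were called, and 4 of 12 mitotic kinesins were lower where 4.44% of all genes were. The widest difference of KIF11 was with QUE, at 6.41 to 8.71 (median 8.28), against 8.38 to 9.02 (median 8.85) in QUE_DMSO, and did not pass (limma adjusted p = 0.090, or 0.053 with the replicate number as a block). KIFC1 (HSET), a motor that walks to the minus end and gathers spindle poles, fell 2.14-fold with GAD, at 6.60 to 7.64 (median 7.29), against 7.87 to 8.80 (median 8.33) in DMSO_pooled. It was also called lower with QUE (1.97-fold) and BRO (1.58-fold), where the groups overlapped. The QUE call of KIFC1 was lost without QUE replicate 2, 3 or 4 or QUE_DMSO replicate 1, 3, 5 or 6 (limma adjusted p up to 0.078). The BRO call of KIFC1 was lost without BRO replicate 2, 3 or 5 or BRO_DMSO replicate 1, 4, 5 or 6 (log2 fold changes from -0.68 to -0.55). The other probe set of KIFC1 was under 4 in all groups, and the mean of both ended all 3 calls (log2 fold changes of -0.52 with GAD, -0.55 with QUE and -0.28 with BRO).

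Of the kinesins that shorten microtubules at their ends, KIF2C and KIF18A were lower with GAD and QUE and KIF18B with GAD. KIF2C (MCAK), a depolymerase at kinetochores, had 7.73 to 8.72 (median 8.32) with GAD, against 9.23 to 9.58 (median 9.38) in DMSO_pooled, a 2.15-fold fall with no overlap (limma adjusted p = 1.8e-05). With QUE it was 1.89-fold lower, again with no overlap, although its log2 fold change was -0.50 without QUE replicates 2 and 3, which ended the call. KIF18A, which damps the swing of chromosomes at the metaphase plate, had 4.15 to 6.96 (median 6.59) with QUE, against 7.24 to 7.74 (median 7.70) in QUE_DMSO, 2.59-fold lower (limma adjusted p = 0.018), and was 1.65-fold lower with GAD. The lowest of these values was QUE replicate 3. KIF18B, which acts on astral microtubules, had 7.28 to 8.51 (median 8.06) with GAD, against 8.77 to 9.51 (median 8.91) in DMSO_pooled, a 2.07-fold fall (limma adjusted p = 0.00039). With QUE it had 7.003 to 9.42 (median 8.84), against 8.76 to 9.65 (median 9.14) in QUE_DMSO, and did not pass (limma adjusted p = 0.17).

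KIF2A, a depolymerase of the same family as KIF2C that works at spindle poles and also outside mitosis, was called lower with QUE and with no other compound. Its 6 QUE signals were 7.60, 8.66, 6.41, 7.51, 7.72 and 7.44, against 8.70 to 9.04 (median 8.80) in QUE_DMSO, and all lay below the controls. The fall was 2.41-fold (log2 fold change -1.27 ± 0.27 SE, limma adjusted p = 0.0054), and it was -1.49 without QUE replicate 2, the highest of the QUE samples. Of the other 2 probe sets of KIF2A, 1 gave -1.33, and the other, under 4 in all groups, gave -0.14. The mean of all 3 gave -0.91 and kept the call. With the other compounds its log2 fold change lay between -0.36 and 0.19. Within the ETP group, replicate 2 stood at 7.02 for KIF2A, with the other ETP samples at 8.72 to 8.96. KIF2A was called in 23 of 23 alternatives for QUE, the leaving out of each library and of QUE replicates 2 and 3 together included.

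The chromosome arm motors KIF22 (Kid) and KIF4A were called lower with 3 and 2 compounds. KIF22 had 4.68 to 5.92 (median 5.35) with QUE, against 6.05 to 6.48 (median 6.22) in QUE_DMSO, a 1.95-fold fall with no overlap (limma adjusted p = 0.0033). It fell 1.67-fold with NCS and 1.65-fold with tBHQ, and the tBHQ call was just under 1.5-fold without tBHQ replicate 3 (log2 fold change -0.58) and with the mean of both KIF22 probe sets (-0.57). KIF4A, which also stops microtubule growth in the midzone of the dividing cell, had 6.19 to 8.47 (median 7.74) with QUE, against 8.14 to 8.88 (median 8.38) in QUE_DMSO. Its 1.79-fold difference was at the edge of the test (limma adjusted p = 0.0495) and was lost without any QUE replicate but 1, or any QUE_DMSO replicate (limma adjusted p from 0.052 to 0.096). With GAD KIF4A was 1.51-fold lower, and this missed 1.5-fold without GAD replicate 3, 5 or 6 or DMSO_pooled replicate 1 or 2 (log2 fold changes from -0.58 to -0.50).

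Of the remaining kinesins of cytokinesis, KIF20B (MPP1) was called lower only with QUE, at 4.69 to 6.49 (median 6.15), against 6.97 to 8.02 (median 7.48) in QUE_DMSO. That 2.87-fold fall had no overlap between the groups (log2 fold change -1.52 ± 0.27 SE, limma adjusted p = 0.0029), with -1.31 left without QUE replicates 2 and 3 and -0.62 for the mean of its 3 probe sets, which kept the call. KIF14, which works with citron kinase, and KIF23 (MKLP1), the motor subunit of centralspindlin, passed the test described above with no compound. KIF14 had 6.60 to 8.66 (median 8.37) with QUE, against 8.44 to 9.13 (median 8.99) in QUE_DMSO (limma adjusted p = 0.063). KIF23 had 7.17 to 8.88 (median 8.52) with QUE, against 8.43 to 9.17 (median 9.12) in QUE_DMSO (limma adjusted p = 0.081). The sample numbers were taken to pair QUE with its controls, and with the number as a block KIF14, KIF15 and KIF23 were called lower with QUE (limma adjusted p of 0.0496, 0.0485 and 0.0472), which made 10 of 12 mitotic kinesins. That block fit called 13.8% of all genes, 7.21% lower. Without the libraries numbered 2 the block gave KIF14 and KIF23 limma adjusted p of 0.075 and 0.081. Then 7 of 12 mitotic kinesins were called lower, where 9.59% of all genes were. 1 fit of all groups called all 12 lower with QUE, where 7.39% of all genes were called lower. That fit shares 1 estimate of the spread over 17 groups. The SD of the mean over the mitotic kinesins was 0.77 in QUE and 0.24 in QUE_DMSO, and QUE had the largest of any group. KIF14 and KIF23 were also called lower with QUE by the mean of their probe sets (limma adjusted p of 0.038 and 0.048). With NCS, KIF23 was called lower without NCS replicate 1.

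MMC gave no kinesin call, where 0.165% of all genes were called, and CUR gave none, where 2.2% were called, 1.27% higher and 0.931% lower. At an unadjusted p under 0.05, limma listed 1 kinesin with MMC and 6 with CUR, again with no share of all genes at that threshold to set beside them. In MMC samples KIF20A had signals of 9.31, 9.13, 8.80, 8.94 and 8.86, against 8.57 to 9.34 in DMSO_pooled, and the groups overlapped throughout. KIF15 had 7.15, 7.08, 6.76, 6.74 and 6.75 with MMC, against 6.78 to 7.35 in DMSO_pooled. With CUR the nearest to a call was KIF21A, at 6.97 to 7.54 (median 7.19), against 6.30 to 7.16 (median 6.44) in CUR_DMSO (limma adjusted p = 0.052), and once the replicate number was a block it was called higher (log2 fold change 0.59, limma adjusted p = 0.0022). Without CUR replicate 5 there were 2 kinesin calls with CUR, and without CUR_DMSO replicate 3 or 6 there was 1. These counts are given with no share of all genes beside them.

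The transport kinesins moved one by one and in both directions. Their calls were 4 higher and 3 lower of 14 with GAD, 3 higher and 0 lower with tBHQ, 1 higher and 3 lower with BRO, 2 higher and 0 lower with ENU and 1 each way with MMS. BRO had 6 kinesin calls, 1 higher and 5 lower, where 7.39% of all genes were called, 2.46% higher and 4.93% lower. With GAD 11.1% of all genes were called higher, and with tBHQ 5.39%.

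KIF3C, a kinesin-2 motor that pairs with KIF3A, moved most and in opposite directions. It had 3.98 to 4.75 (median 4.34) with GAD, against 5.21 to 5.72 (median 5.42) in DMSO_pooled, a 2.14-fold fall (log2 fold change -1.09 ± 0.14 SE, limma adjusted p = 1.3e-05). With tBHQ, against the same controls, it had 6.38 to 6.77 (median 6.45), a 2.08-fold rise (log2 fold change 1.06 ± 0.10 SE, limma adjusted p = 1.0e-05). Neither group overlapped the controls. With BRO it was 1.78-fold lower, at 4.23 to 5.17, against 5.16 to 5.68 in BRO_DMSO. KIF13A, a carrier of recycling endosomes, also moved both ways. It had 7.33 to 8.01 (median 7.69) with GAD, against 8.43 to 8.68 (median 8.59) in DMSO_pooled, 1.88-fold lower (limma adjusted p = 4e-06). With tBHQ it had 9.32 to 9.54 (median 9.39), 1.79-fold higher than the same controls (limma adjusted p = 1.2e-06). Of the 6 probe sets of KIF13A, 3 were under 4 in all groups. The other 3 gave log2 fold changes of -0.91, -0.85 and -0.41 with GAD and of 0.84, 1.00 and 0.76 with tBHQ. The mean of all 6 ended both calls, at -0.40 with GAD and just under 1.5-fold with tBHQ (0.58). With GAD the other kinesin-2 motor KIF3A, which drives transport in cilia, was 1.58-fold higher, at 7.51 to 7.91 (median 7.74), against 6.92 to 7.31 (median 7.08) in DMSO_pooled (limma adjusted p = 2.3e-05). The other probe set of KIF3A gave a log2 fold change of 0.25, and the mean of both (0.46) was under 1.5-fold. Its partner KIF3B had no call, with log2 fold changes from -0.13 to 0.32.

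Kinesin-1, the main carrier of vesicles and mitochondria, was represented by KIF5B and KIF5C. KIF5C, best known from neurons, rose 1.94-fold with tBHQ, at 6.21 to 6.81 (median 6.50), against 4.98 to 5.96 (median 5.55) in DMSO_pooled, with no overlap (limma adjusted p = 0.00041). KIF5B, the form found in nearly all cells, was called with no compound and its log2 fold changes lay between -0.23 and 0.12.

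KIF21A and KIF1C were the transport kinesins called higher with the most compounds, 3 each. KIF21A, a kinesin-4 that limits microtubule growth at the cell edge, had 7.71 to 8.08 (median 7.84) with MMS, against 5.93 to 7.28 (median 7.04) in MMS_CTL. All 6 MMS samples were above all controls, a 2.02-fold rise (log2 fold change 1.01 ± 0.19 SE, limma adjusted p = 0.0014). MMS_CTL replicate 3 was the lowest of the controls, and without it the log2 fold change was 0.83. It also rose with ENU (1.54-fold, 7.84 to 8.17, against 7.08 to 7.71 in DMSO_pooled) and GAD (1.55-fold, 7.91 to 8.11, against the same controls), and both calls missed 1.5-fold without DMSO_pooled replicate 4 (log2 fold change 0.57 in each). The ENU call also missed it with the mean of both probe sets (0.53). KIF1C, a kinesin-3 that carries vesicles to the cell edge, had 7.56 to 8.05 (median 7.74) with GAD, against 6.34 to 7.30 (median 6.57) in DMSO_pooled, a 2.09-fold rise (limma adjusted p = 4.4e-05). It was 1.59-fold higher with BRO and 1.53-fold higher with ENU. The 3 probe sets of KIF1C disagreed. The one used gave log2 fold changes of 1.07 with GAD, 0.62 with ENU and 0.67 with BRO, the next gave 0.69, 0.32 and 0.05, and the third was under 4 in all groups and gave -0.069, 0.016 and 0.044. No KIF1C call was left with the mean of all 3 (0.56, 0.32 and 0.26). The ENU call of KIF1C also missed 1.5-fold without ENU replicate 1, 2 or 3 or DMSO_pooled replicate 3, 4, 5 or 6 (log2 fold changes from 0.54 to 0.58).

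**Figure D4:**
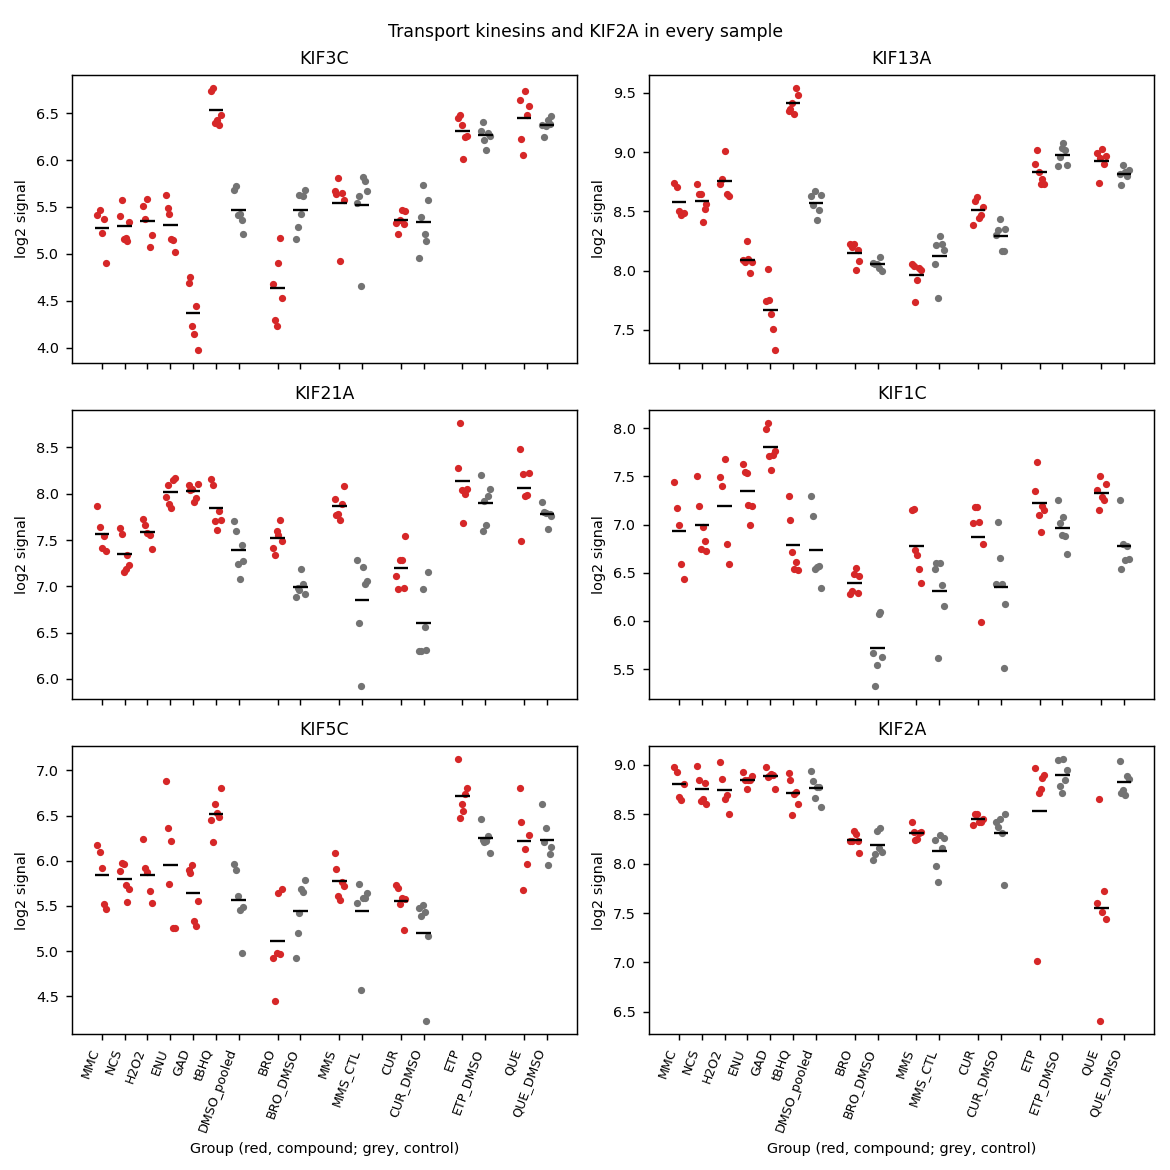
Log2 signal of KIF3C, KIF13A, KIF21A, KIF1C, KIF5C and KIF2A in each sample, with compounds in red, controls in grey and bars at group means. For KIF3C and KIF13A the GAD samples lie below and the tBHQ samples above all DMSO_pooled samples, and for KIF2A all 6 QUE samples lie below QUE_DMSO.

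Of the other kinesins of transport, KIF1B, which carries mitochondria and synaptic vesicle precursors, rose 1.62-fold with GAD, at 9.52 to 9.87 (median 9.66), against 8.73 to 9.24 (median 8.92) in DMSO_pooled (limma adjusted p = 1.7e-05). KIF13B fell with BRO, 1.66-fold, at 4.64 to 5.14 (median 4.97), against 5.37 to 5.89 (median 5.75) in BRO_DMSO, and with GAD, 1.64-fold. KIF21B, a relative of KIF21A, fell 1.57-fold with BRO. With MMS it had 3.56 to 4.09 and a mean under 4, against 4.21 to 4.83 in MMS_CTL, so that its fall there is bounded at a log2 fold change of -0.44 and is at least that large. That MMS call missed 1.5-fold without MMS replicate 2 or 3 or MMS_CTL replicate 1 or 2. Its widest difference was with ETP, at 4.48 to 6.26 (median 4.81), against 5.32 to 5.94 (median 5.82) in ETP_DMSO, and the test was not passed (limma adjusted p = 0.13). The highest ETP sample, 6.26, was the library labelled replicate 2, and without it KIF21B was called lower, 1.91-fold (limma adjusted p = 0.00089). With QUE it had 4.73 to 6.31 (median 6.12), against 5.00 to 5.58 (median 5.32) in QUE_DMSO (limma adjusted p = 0.087). The lowest QUE sample was the library labelled replicate 2, and without it KIF21B was called higher, 1.70-fold (limma adjusted p = 0.00037). KIFC2 had 5.27 to 5.96 (median 5.68) with tBHQ, against 5.05 to 5.40 (median 5.31) in DMSO_pooled, under 1.5-fold (limma adjusted p = 0.018). KIF16B, a carrier of early endosomes, and KIFC3, a minus-end motor, were called with no compound.

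KIF9, a motor of motile cilia, had 7.80 to 8.06 (median 7.95) with ENU, against 8.30 to 8.69 (median 8.56) in DMSO_pooled, 1.50-fold lower with no overlap (limma adjusted p = 0.00013). The 3 KIF9 probe sets that reached 4 in any group are of a type that can bind related transcripts, and the mean of its 4 probe sets gave -0.37, under 1.5-fold. The ENU call also missed 1.5-fold without ENU replicate 3, 5 or 6 or DMSO_pooled replicate 4, 5 or 6 (log2 fold changes from -0.58 to -0.56). KIF9 was not low with ENU alone, as its log2 fold change was below 0 with all 11 compounds. It was -0.55 with GAD, -0.42 with BRO and -0.33 with MMS (limma adjusted p of 5.3e-05, 0.012 and 0.0038), all under 1.5-fold.

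To set compounds of a like kind against each other, 6 pairs were compared through their own controls in 1 limma fit of all groups, with p-values adjusted over all genes and the 6 pairs. The doses differ within each pair, and the fit shares 1 estimate of the spread over all groups. NCS and MMC, which break and crosslink DNA, differed in 3 mitotic kinesins where 1.10% of all genes differed: KIF15 by -1.10 (95% interval -1.62 to -0.58, limma adjusted p = 0.0016), KIF11 by -0.81 and KIF22 by -0.66, all lower with NCS. That count was 5 without NCS replicate 1 and 1 without NCS replicate 3. ETP and NCS, which both lead to DNA breaks, differed in no kinesin where 0.348% of all genes differed, and KIF9 alone had an unadjusted p under 0.05 (a difference of -0.33, under 1.5-fold). The ETP minus NCS difference of KIF15 was 0.36, with an interval of -0.34 to 1.07 that leaves room for a sizeable difference. MMS and ENU, both alkylating agents, differed in KIF20A by -1.75 (95% interval -2.62 to -0.88, limma adjusted p = 0.0026), where 7.70% of all genes differed. KIF20A was 2.14-fold lower with MMS and 1.58-fold higher with ENU. Without MMS_CTL replicate 3, 2 kinesins differed between MMS and ENU.

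Among the phenolic compounds, QUE and CUR differed in 5 kinesins, all lower with QUE, where 11.2% of all genes differed: KIF20A by -1.73, KIF20B by -1.60, KIF18A by -1.51, KIF2A by -1.41 and KIF22 by -0.96. With the replicate number as a block 10 kinesins differed, and without ETP replicate 2 and QUE replicate 2 there were 6, with KIF21B higher with QUE (0.60). QUE and tBHQ also differed in 5, where 14.7% of all genes differed. KIF2A (-1.22) and KIF20B (-1.09) were lower with QUE than with tBHQ, and the transport kinesins KIF3C (-0.99), KIF5C (-0.97) and KIF13A (-0.73), higher with tBHQ, made up the rest. The block gave 9 kinesins for that pair. The KIF20A difference between QUE and tBHQ was -1.12 (95% interval -1.99 to -0.25) and did not pass (limma adjusted p = 0.077). Without both of those libraries 7 kinesins differed between QUE and tBHQ, with KIF20A (-1.34, limma adjusted p = 0.0024) and KIF18A (-1.08) added. tBHQ and H2O2, both agents of oxidative stress, differed in 4 transport kinesins, all higher with tBHQ, where 9.78% of all genes differed: KIF3C by 1.18, KIF21B by 1.03, KIF5C by 0.67 and KIF13A by 0.65. None of the 12 mitotic kinesins was called between them, and for KIF20A the difference was -0.50 (95% interval -1.15 to 0.14).

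Samples of a group also varied in their mitotic kinesins together. Over 100 samples, taken as deviations from their group means, the 66 pairs of mitotic kinesins had a median Pearson r of 0.83 (range 0.52 to 0.94). The 91 pairs of transport kinesins had a median of 0.16 (-0.45 to 0.65), and the 168 pairs of a mitotic with a transport kinesin 0.12. Each mitotic kinesin followed the mean of the other 11 mitotic kinesins, with r from 0.96 for KIF4A and 0.94 for KIF11 down to 0.82 for KIF20A. Outside the mitotic list KIF2A (0.60) and KIF5C (0.53) were nearest, and KIF16B (-0.54) and KIF13B (-0.53) ran the other way. Without ETP replicate 2 and QUE replicate 2 the r of KIF20A was 0.92 and that of KIF2A 0.73, and the median r was 0.86 between mitotic kinesins, 0.10 between transport kinesins and 0.22 between both kinds. The points share arrays and their normalization, and these values are descriptions only.

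**Figure D5:**
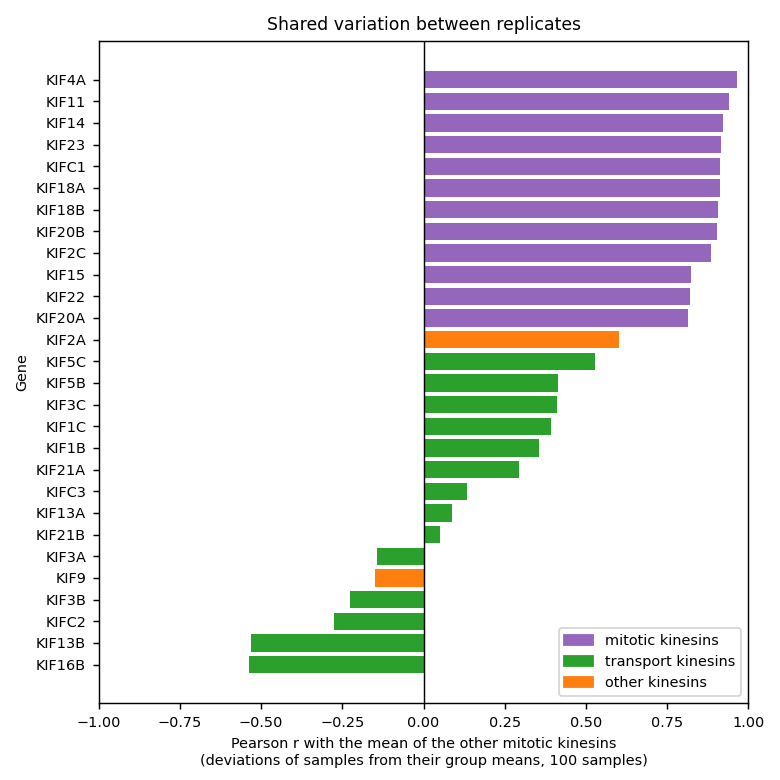
Pearson r of each tested kinesin with the mean of the other mitotic kinesins, over the deviations of 100 samples from their group means. Bars of mitotic kinesins (purple) lie between 0.82 and 0.96, above all transport (green) and other kinesins (orange), the highest of which is KIF2A at 0.60.

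Transcripts of proteins that work with the mitotic kinesins were called lower mostly with QUE and GAD. Of 20 such partners, 16 were lower with QUE, where 6.65% of all genes were, and 12 with GAD, where 15% were. There were 3 lower with tBHQ (4.44% of all genes), 1 with NCS (0.966%) and 1 with ETP (0.618%), and none was higher with any compound. Without replicate 2 of QUE and of ETP the counts were again 16 and 1. The median log2 fold change of the partners was -1.01 with QUE, -0.63 with GAD and -0.42 with tBHQ. It was -0.40 with NCS, -0.40 with H2O2 and -0.38 with ETP, though -0.15 without ETP replicate 2. All 20 were below 0 with QUE, NCS, H2O2 and ETP (15 without ETP replicate 2), although none was called with H2O2. With BRO and CUR the median was -0.16 and -0.12, and with MMC, ENU and MMS it was above 0. AURKB, the kinase that KIF20A carries to the central spindle, fell with QUE (log2 fold change -1.01 ± 0.33), GAD (-0.97 ± 0.16), ETP (-0.78 ± 0.20) and tBHQ (-0.61 ± 0.20). Without the libraries labelled replicate 2 it was -0.84 with QUE and -0.65 with ETP, both called. MKI67, the coat of mitotic chromosomes, fell with QUE (-1.01 ± 0.33), NCS (-0.91 ± 0.20), GAD (-0.90 ± 0.13) and tBHQ (-0.78 ± 0.15). NUSAP1, which bundles spindle microtubules, fell with tBHQ (-1.05 ± 0.13), QUE (-0.94 ± 0.29) and GAD (-0.64 ± 0.11). CENPE, the kinesin-7 of kinetochores whose symbol falls outside the KIF names, fell with QUE (-1.75 ± 0.37) and GAD (-0.69 ± 0.17). In their promoter windows, 12 of 16 partners with a window held TTTGAA (75.0%).

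Of 15 regulators of mitotic transcription, CDKN1A, the p53 target p21, was called higher with all compounds but CUR and tBHQ, from 0.70 ± 0.08 with MMC to 1.37 ± 0.07 with GAD. The share of all genes called higher ran from 0.165% with MMC to 11.1% with GAD over these. Other than CDKN1A, 3 regulators had calls. CENPF fell with QUE (-1.01 ± 0.26) and GAD (-0.78 ± 0.14), and LIN9, a MuvB subunit, rose with GAD (0.91 ± 0.14) and MMS (0.79 ± 0.13). RBL1 (p107), a pocket protein that represses cell cycle genes, fell with tBHQ (-1.06 ± 0.31) and rose with MMS (1.03 ± 0.21).

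Few genes of the machinery around transport kinesins were called, and they went both ways. Of 14 tested cargo adaptors and light chains, 2 were called with GAD, where 26.2% of all genes were, 1 with tBHQ (9.83%) and 1 with MMS (11%). KLC2, a light chain of kinesin-1, rose with GAD (0.86 ± 0.10) and tBHQ (0.59 ± 0.11), while TRAK1, which links kinesin-1 to mitochondria, fell with GAD (-1.18 ± 0.11) and MMS (-0.79 ± 0.10). Without QUE replicate 2, KIFAP3, which links kinesin-2 to its cargo, was called lower with QUE (-0.70 ± 0.10). Of 19 tested genes of dynein, the motor for the opposite direction, and its cofactor dynactin, 2 were lower with GAD (15% of all genes), among them NDE1 (-1.09 ± 0.10). DYNC1H1, the heavy chain, was higher with tBHQ (0.66 ± 0.09, with 5.39% of all genes higher), 1 gene was higher with ENU (4.76%), and QUE had 1 each way (6.38% higher and 6.65% lower). The list medians lay between -0.08 and 0.19 for the adaptors and between -0.05 and 0.12 for dynein and dynactin.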

How the data were processed

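Total RNA of HT1080 cells was measured on 101 Affymetrix HT HG-U133+ PM arrays of 54715 probe sets. Per the submitters' processing notes the authors used Partek and GCRMA, versions not given, and the deposited values are log2 probe set signals. Quantiles were alike within 6 sets (each control with its compounds) and differed between them, so sets look normalized apart and were compared only through their own controls. Nothing was renormalized. Of 54613 probe sets that are not controls, 40914 had 1 gene, 864 several and 12835 none in the array's annotation. 38 symbols found no match in the GRCh38.p14 gene list. The brightest probe set of a gene, by its mean on every array, was kept. Genes with a group mean of 4 or more in any of the 17 groups were tested (11496 of 19774). The ETP_DMSO array 2 and the array 2-2 were averaged (SD of their difference 0.154, next closest pair 0.242), which left 100 samples. The number of arrays and the signal over background limit the precision.

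Each compound was compared with its control in limma 3.58.1 (R 4.3.3 and data.table, version 1.17.8) by eBayes, and p-values were adjusted by Benjamini-Hochberg over the genes tested. A call needed an adjusted p under 0.05 and at least 1.5-fold. The limma step was tested on simulated data. Kinesins were named by this rule: all members by name, members called at least once with values, and the lowest, median and highest signal in the comparison with the largest change for up to 24 of them. Of each further list up to 4 genes are given, those with the most calls. The members and lists were chosen with earlier results of these data known. Same-numbered samples of compound and control deviated together (every r over 0.1, over tested genes) in all comparisons but MMS (-0.134 to 0.316) and ETP (-0.00219 to 0.650), so the numbers were taken to pair samples in the other 9. The main fits did not use this pairing, and the replicate block did. Alternatives were no filter, a filter at 6, the mean of probe sets, equal medians, quantile normalization, 1 fit of all groups, trended and robust variances, no fold minimum, the replicate block and leaving out each sample. Leaving the libraries labelled replicate 2 out of ETP and QUE for the gene lists and for the pairs of compounds was added after seeing the data. Figures used matplotlib 3.10.9, pandas 2.3.3 and numpy 2.4.6. Promoter sequences are RefSeq's, build GRCh38.p14. KIF13B, KIF21B, KIFC2 and KIFC3 were left out of the promoter search.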

Additional observations from a re-analysis of the deposited data

Results flagged for a closer look

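Within groups of 5 or 6 samples, some values lay far from the others by Dixon's criterion, which flags about 1 in 20 groups by chance. Of 34 group means of a list, 3 were so marked. The mean over the mitotic kinesins was lowest in CUR_DMSO replicate 5, at 7.02, with the next at 7.66. The mean over the transport kinesins was highest in ETP replicate 2, at 7.55, with the next at 7.28, and lowest in MMS_CTL replicate 3, at 6.03, with the next at 6.53. Of 81 groups of a named kinesin, 4 were marked. KIF18A was lowest in QUE replicate 3, at 4.15 (next 6.32), and KIF20B was lowest in the same sample, at 4.69 (next 5.82). Among controls, KIF18A was lowest in QUE_DMSO replicate 2, at 7.24 (next 7.57), and KIF4A was highest in QUE_DMSO replicate 1, at 8.88 (next 8.40). Without CUR_DMSO replicate 5 the median log2 fold change of the mitotic kinesins with CUR was -0.23, against -0.09 with it. Without ETP replicate 2 the transport median with ETP was 0.0042, against 0.053 with it, and without MMS_CTL replicate 3 that with MMS was 0.0080, against 0.075 with it. With QUE, the KIF18A log2 fold change was -0.95 without QUE replicate 3 and -1.45 without QUE_DMSO replicate 2, KIF20B was -1.27 without QUE replicate 3, and both kinesins kept their calls. KIF4A was -0.74 without QUE_DMSO replicate 1 and was not called.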

How the results depend on the processing

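No called kinesin changed direction under any alternative that was run. Of the 45 calls, the mean of all probe sets of a gene ended 12, no filter 2, equal medians 2, and 1 fit of all groups 1. A filter at 6 kept 43, as KIF21B was no longer tested and its BRO and MMS calls were lost. Quantile normalization, trended and robust variances, no fold minimum and the replicate block ended none, and of 540 refits that left out 1 sample 53 fell short of a call. Counts of called kinesins that moved by over 1.5 times were as follows. With no fold minimum there were 4 with NCS (7.7% of all genes called), 1 with H2O2 (1.89%) and 11 with ENU (33.2%). There were also 12 with tBHQ (31.9%), 7 with MMS (35%) and 3 with ETP (5.08%). With the replicate block there were 5 with NCS (3.72% of all genes called), 1 with H2O2 (1.95%), 1 with CUR (3.9%) and 2 with ETP (3.21%). The ETP count was 3 (5.19%) without number 2, an alternative chosen after seeing the data. For QUE the block count was 11 (13.8%). The block ended no call. 1 fit of all groups gave 1 with H2O2 (1.45% of all genes called), 1 with CUR (3.33%), 2 with ETP (3.73%) and 13 with QUE (14%). A filter at 6 gave 1 with H2O2 and 1 with CUR, as did trended and robust variances, equal medians gave 1 with CUR, and the mean of probe sets gave 1 with ENU. Between compounds, a fit of only the groups of MMS and ENU gave 2, and the block, added after seeing the data, gave 10 for QUE and CUR and 9 for QUE and tBHQ. Leaving out each sample in turn gave 0 to 0 with MMC, 2 to 7 with NCS, 0 to 2 with H2O2, 1 to 5 with ENU, 13 to 15 with GAD, 6 to 7 with tBHQ, 5 to 6 with BRO, 2 to 4 with MMS, 0 to 2 with CUR, 1 to 2 with ETP and 6 to 9 with QUE. For the pairs it gave 1 to 5 for NCS and MMC, 0 to 0 for ETP and NCS, 1 to 2 for MMS and ENU, 5 to 6 for QUE and CUR, 4 to 6 for QUE and tBHQ and 3 to 4 for tBHQ and H2O2. Where no share of all genes stands beside a count of an alternative, here or above, that count has no baseline. Leaving out QUE replicates 2 and 3 together was chosen after seeing the data. It left 6 calls with QUE, where 18.1% of all genes were called. Of these calls, 4 were lower mitotic kinesins, where 8.92% of all genes were called lower. The causes of these moves were not tested, except that no fold minimum admits smaller changes by construction.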
